A study of Mus musculus with 20 samples.

Results

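Adipocyte and lipid storage genes were examined in mouse plantaris muscle after mechanical overload (MOV) and lentiviral delivery of a miR-1 mimic. The set was chosen by gene symbol and held 10 genes of the 54532 in the count tables, namely Adipoq, Cfd, Lep, Plin1, Plin4, Fabp4, Lpl, Cd36, Scd1 and Fasn. All 10 had counts, and the question was whether they moved together, as fat tissue in the sample would, or separately. RNA-seq was carried out on day 10 in 4 groups of 5 libraries, a sham pair called sham control and sham mimic and an overloaded pair called MOV control and MOV mimic. The animals were male C57BL/6J mice of 5 months that had either sham surgery or bilateral synergist ablation, in which part of the gastrocnemius and soleus is cut away so that the plantaris carries the load. In each mouse the left plantaris received a scramble-control lentivirus and the right plantaris the miR-1 mimic lentivirus, both from a CMV promoter with a TurboGFP reporter, so every library, controls included, came from an injected muscle. By the study's account the virus reached only part of the fibres, and the mimic did not raise miR-1 in sham muscle. The control and mimic muscles therefore came from the same mice, whereas the labels do not say that equal replicate numbers mark 1 mouse, and the p-values below treat libraries as separate.

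White adipocytes store triglyceride in a single large droplet coated by perilipin 1 and secrete adipokines such as adiponectin, adipsin and leptin. Skeletal muscle contains few adipocytes, which lie between the fibres and along vessels and fascia, while the fibres and their capillaries take up fatty acids through lipoprotein lipase, CD36 and fatty acid-binding proteins. The 10 genes therefore mix products made chiefly by adipocytes with others that muscle or endothelium also make. Adipoq, Cfd and Lep encode adipokines, Plin1 and Plin4 encode droplet coats, Fabp4, Lpl and Cd36 handle fatty acids, and Scd1 and Fasn encode enzymes that make and desaturate fatty acids.

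The promoters of 4 of them are shown because these genes stood on different sides of the patterns described below, Adipoq, Lep and Plin1 among genes made chiefly by adipocytes and Cd36 among genes of fatty acid uptake. Each sequence is the RefSeq (GRCm38.p6) window from 250 bases before to 50 bases after a transcript start in that annotation, read 5′ to 3′ on the gene's strand, with matches on either strand to TTGCGCAA, CCAAT or AGGTCA in capitals. These 3 motifs are the letters of a C/EBP palindrome, a CCAAT box and a nuclear receptor half-site, and in the windows shown no match overlaps another. The start used for Adipoq and Lep is the 5′ end of the gene, whereas that for Plin1 lies 128 bases and that for Cd36 53063 bases inside the gene's annotated span, so the Cd36 window is placed on an internal start. Adipoq lies at chr16:23146286-23146585 on the plus strand, Plin1 at chr7:79732727-79733026 on the minus strand, Lep at chr6:29059971-29060270 on the plus strand and Cd36 at chr5:17835847-17836146 on the minus strand.
Adipoq: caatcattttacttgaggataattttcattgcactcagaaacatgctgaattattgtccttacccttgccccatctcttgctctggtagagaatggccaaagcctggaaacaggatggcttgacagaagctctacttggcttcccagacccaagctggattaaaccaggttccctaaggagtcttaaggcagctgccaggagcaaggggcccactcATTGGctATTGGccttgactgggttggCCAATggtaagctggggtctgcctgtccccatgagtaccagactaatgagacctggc
Plin1: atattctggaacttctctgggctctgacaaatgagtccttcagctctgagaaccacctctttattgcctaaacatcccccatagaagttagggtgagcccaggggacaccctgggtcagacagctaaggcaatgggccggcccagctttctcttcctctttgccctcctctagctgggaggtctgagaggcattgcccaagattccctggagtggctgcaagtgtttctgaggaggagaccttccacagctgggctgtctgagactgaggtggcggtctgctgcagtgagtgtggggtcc
Lep: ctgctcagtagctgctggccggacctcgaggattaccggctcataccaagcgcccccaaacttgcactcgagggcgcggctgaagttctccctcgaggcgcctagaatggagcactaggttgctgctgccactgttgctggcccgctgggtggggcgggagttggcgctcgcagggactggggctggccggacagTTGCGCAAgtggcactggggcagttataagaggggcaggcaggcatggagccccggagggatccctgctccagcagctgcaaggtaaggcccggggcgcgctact
Cd36: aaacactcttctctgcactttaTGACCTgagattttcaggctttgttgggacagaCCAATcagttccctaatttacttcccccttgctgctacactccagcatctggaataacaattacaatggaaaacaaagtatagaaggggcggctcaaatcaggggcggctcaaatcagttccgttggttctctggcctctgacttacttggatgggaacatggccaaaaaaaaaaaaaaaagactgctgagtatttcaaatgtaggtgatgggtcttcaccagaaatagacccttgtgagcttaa

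TTGCGCAA was present once in the Lep window and in 0.183% of all 32851 promoter windows. CCAAT was present 3 times in the Adipoq window and 3 times in that of Fasn, and 1 time each in those of Plin4 and Cd36, against 37.4% of all windows with at least 1 match. AGGTCA was present in the Cd36 window and in 16.3% of all windows. The Plin1 and Cfd windows held none of the 3 words. The reference table had entries for 7 of the 10 genes, and Fabp4, Lpl and Scd1 were not among them. A match in letters is a description of the window and does not show binding.

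Libraries held between 12036360 and 23056525 counts, and none of the 40 pairs of libraries within a group had matching counts. Levels are given as counts scaled to library size by TMM (CPM), and differences as log2 fold changes from the quasi-likelihood test of edgeR with Benjamini-Hochberg adjustment over all genes tested, a gene being called at an adjusted p below 0.05. Without TMM, the median log2 fold change of all genes moved from 0.04 to 0.196 for MOV control against sham control and from 0.017 to 0.221 for MOV mimic against sham mimic, and no member changed direction. In bulk muscle, fewer cells of a type and less RNA per cell cannot be told apart.

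Levels per kilobase of exon spanned a wide range. In sham control the mean was 253 CPM per kb for Fabp4, 104 for Lpl, 67.2 for Cd36, 23.6 for Plin4, 15.3 for Cfd and 10.6 for Scd1. The other 4 genes were far lower on the same scale, with 2.93 CPM per kb for Adipoq, 2.53 for Fasn, 1.28 for Plin1 and 0.126 for Lep. The order was led by genes that fibres and capillaries make, and 3 of the 4 lowest were the genes most particular to adipocytes. Counts of the adipocyte products were accordingly small, at most 539 for Cfd, 158 for Adipoq, 98 for Plin1 and 35 for Lep in any library, against up to 15388 for Lpl.

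Adipoq (ENSMUSG00000022878, chr16:23146536-23157968) encodes adiponectin, a hormone that adipocytes secrete. In sham control it was at 2.19, 5.54, 0.806, 1.39 and 10.3 CPM in replicates 1 to 5, and in sham mimic at 3.53, 3.39, 1.83, 5.48 and 4.36. In MOV control it was at 0.243, 0.301, 3.58, 0 and 4.43 CPM, and in MOV mimic at 1.42, 0.747, 3.27, 0.995 and 2.79. Levels within MOV control fell into a low set of 3 libraries and a high set of 2 that lay within the sham range, so the groups overlapped. The log2 fold change was −1.22 ± 0.98 (SE, n = 5 per group) for MOV control against sham control, with an edgeR adjusted p of 0.539, and −0.98 ± 0.47 for MOV mimic against sham mimic, with an adjusted p of 0.387. The former was −0.52 without sham control replicate 5 and −1.89 without MOV control replicate 5. The 0 counts in MOV control replicate 4 allow up to 3 counts, or 0.19 CPM, counting error only.

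Cfd (ENSMUSG00000061780, chr10:79890853-79892655) encodes adipsin, the complement factor D that mouse adipocytes secrete in large amounts. Its level in sham control was 10.6, 16.7, 6.18, 7.32 and 29.7 CPM in replicates 1 to 5, and in sham mimic 13.1, 11.5, 2.64, 24.0 and 21.8. In MOV control it was 1.51, 4.30, 2.02, 1.07 and 16.7 CPM, and in MOV mimic 8.45, 3.78, 4.90, 5.62 and 11.3. In MOV control 4 libraries lay below every sham control library and replicate 5 lay among them. The log2 fold change was −1.46 ± 0.68 in MOV control (adjusted p = 0.28) and −1.07 ± 0.48 in MOV mimic (adjusted p = 0.359), by edgeR. Without MOV control replicate 5 it was −2.58 and was called, with an edgeR adjusted p of 0.0429.

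Lep (ENSMUSG00000059201, chr6:29060221-29073876), which encodes the satiety hormone leptin, was near the limit of detection. The 5 libraries of each group held 2 counts in MOV control against 34 in sham control, and 33 in MOV mimic against 74 in sham mimic. Both counts in MOV control came from replicate 5, and 26 of the 33 in MOV mimic came from replicate 5 as well. The other 4 MOV control libraries were at 0, which allows between 0.129 and 0.19 CPM. Summed over libraries, Lep in MOV control was 0.0584 of that in sham control per count sequenced, with a 95% exact interval from counting error of 0.0068 to 0.228, and in MOV mimic it was 0.537 of sham mimic (0.345 to 0.819). These intervals leave out the spread between muscles. Single libraries moved both ratios, since 20 of the 34 counts in sham control came from replicate 2 and 35 of the 74 in sham mimic from replicate 4. The first ratio was 0.112 (0.0123 to 0.486) without sham control replicate 2, and MOV control held 0 counts without replicate 5. The second was 0.771 (0.47 to 1.26) without sham mimic replicate 4 and 0.143 (0.0556 to 0.31) without MOV mimic replicate 5. The exact two-sided permutation test on log2 CPM gave p = 0.0159 for MOV control against sham control and p = 0.27 for MOV mimic against sham mimic, where the smallest p that 252 splits allow is 0.00794. Lep was too low for the edgeR filter in the comparisons of 2 groups.

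Plin1 (ENSMUSG00000030546, chr7:79721164-79732904) encodes the coat protein of the adipocyte droplet. Its level in sham control was 1.81, 3.34, 1.34, 0.666 and 5.14 CPM in replicates 1 to 5, and in sham mimic 3.97, 4.21, 0.964, 4.37 and 2.31. In MOV control it was 0.584, 2.32, 0.104, 0.0632 and 0.582 CPM, and in MOV mimic 2.38, 2.10, 0.753, 0 and 0.52. MOV control had 1 high library, replicate 2, which was not a library with high Adipoq. Overload gave a log2 fold change of −1.65 ± 0.79 in MOV control (adjusted p = 0.29) and −1.40 ± 0.77 in MOV mimic (adjusted p = 0.449), by edgeR, and groups overlapped in both. The former was −2.81 without MOV control replicate 2 (adjusted p = 0.114).

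Plin4 (ENSMUSG00000002831, chr17:56100587-56109948) encodes a perilipin of small droplets that is made in muscle as well as fat, and its locus overlaps Hdgfl2 in the annotation. The strand setting of the counting is not given in the sources used here, so reads of the 2 genes may not have been told apart. Sham control was at 236, 126, 77.8, 116 and 122 CPM, and MOV control at 45.04, 47.3, 68.6, 60.4 and 34.1 CPM, in replicates 1 to 5. Every MOV control library lay below every sham control library. Sham mimic was at 199, 72.0, 104, 152 and 113 CPM, and MOV mimic at 55.7, 45.4, 67.3, 51.7 and 101 CPM. The mimic groups overlapped through MOV mimic replicate 5. MOV against sham gave a log2 fold change of −1.37 ± 0.28 in MOV control (adjusted p = 0.0554) and −0.97 ± 0.28 in MOV mimic (adjusted p = 0.272), by edgeR.

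Lpl (ENSMUSG00000015568, chr8:68880555-68906932) encodes lipoprotein lipase, which frees fatty acids from circulating triglyceride at the capillary wall. It was the most abundant of the 10 in CPM. Sham control was at 1119, 723, 412, 453 and 829 CPM, and MOV control at 268, 385, 277, 184 and 180 CPM, in replicates 1 to 5. No MOV control library reached the lowest sham control library. Sham mimic was at 905, 436, 678, 686 and 430 CPM and MOV mimic at 303, 412, 227, 291 and 589 CPM, and these groups overlapped. For Lpl the log2 fold change was −1.41 ± 0.30 in MOV control (adjusted p = 0.0557) and −0.75 ± 0.28 in MOV mimic (adjusted p = 0.309), by edgeR.

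Cd36 (ENSMUSG00000002944, chr5:17781690-17888959) encodes the fatty acid translocase of fibre, endothelial and adipocyte membranes. Sham control was at 332, 295, 167, 192 and 333 CPM, and MOV control at 91.8, 146, 144, 82.6 and 112 CPM. These 2 groups were again apart. Sham mimic was at 339, 223, 303, 268 and 173 CPM and MOV mimic at 125, 134, 125, 114 and 217 CPM, with MOV mimic replicate 5 alone reaching into the sham mimic range. For Cd36 this gave a log2 fold change of −1.16 ± 0.23 in MOV control (adjusted p = 0.0554) and −0.84 ± 0.22 in MOV mimic (adjusted p = 0.267), by edgeR. Without MOV mimic replicate 5 the latter was −1.04 and was called, with an edgeR adjusted p of 0.0419.

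Fabp4 (ENSMUSG00000062515, chr3:10204342-10208616) encodes the fatty acid carrier of adipocytes, which capillary endothelium and macrophages also make, and it had the smallest range over 20 libraries of the genes with a negative fold change. Its CPM was 168, 195, 129.7, 139 and 174 in replicates 1 to 5 of sham control and 93.0, 97.4, 168, 85.9 and 105 in those of MOV control. In sham mimic it was 131, 137, 167, 135 and 157, and in MOV mimic 98.2, 91.4, 121, 129 and 124. Apart from replicate 3, MOV control lay below sham control, and every MOV mimic library lay below every sham mimic library. The log2 fold change was −0.51 ± 0.19 in MOV control (adjusted p = 0.182) and −0.33 ± 0.13 in MOV mimic (adjusted p = 0.333), by edgeR.

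Scd1 (ENSMUSG00000037071, chr19:44394450-44407709) encodes the desaturase that makes monounsaturated fatty acids. Sham mimic was at 50.8, 60.3, 31.4, 46.9 and 46.6 CPM, and MOV mimic at 23.9, 24.8, 28.6, 24.3 and 23.7 CPM, in replicates 1 to 5. MOV mimic was apart from sham mimic and had the narrowest range of any member in any group, its highest library being 1.21 times its lowest. Sham control was at 44.0, 56.7, 34.2, 26.5 and 95.3 CPM and MOV control at 22.3, 43.4, 23.3, 28.8 and 55.9 CPM, and these groups overlapped. For Scd1 the log2 fold change was −0.88 ± 0.16 in MOV mimic (adjusted p = 0.213) and −0.53 ± 0.33 in MOV control (adjusted p = 0.425), by edgeR. Fasn (ENSMUSG00000025153, chr11:120805958-120825166), which encodes fatty acid synthase, did not share this direction. Its CPM ranged from 19.7 to 31.4 in sham control against 19.99 to 39.4 in MOV control, and from 24.1 to 38.9 in sham mimic against 24.0 to 38.0 in MOV mimic. Its log2 fold change was 0.25 ± 0.20 in MOV control (adjusted p = 0.527) and 0.13 ± 0.17 in MOV mimic (adjusted p = 0.774), by edgeR.

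**Figure D1:**
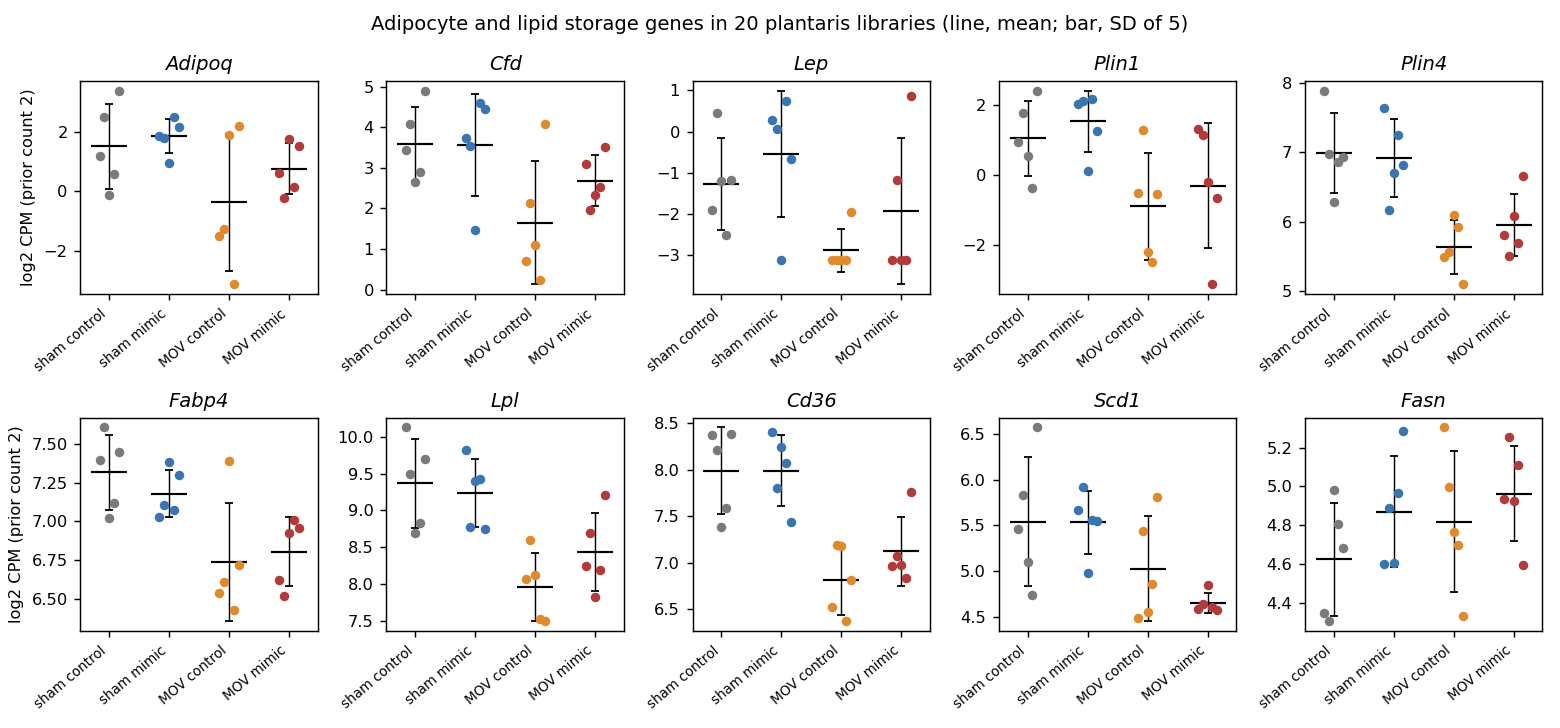
Level of each of the 10 genes in the 20 libraries on the log2 CPM scale (prior count 2), with 1 panel per gene and its own axis, the mean of each group as a line and the SD of its 5 libraries as a bar. Plin4, Lpl and Cd36 have no overlap between MOV control and sham control, Adipoq in MOV control splits into 3 low and 2 high libraries, and Fasn lies at similar levels in all groups.

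Set against all genes, 0 of the 9 tested members were called for MOV control against sham control by edgeR, where 0.00668% of 14974 genes were called, the single called gene being Nos1, which was lower in MOV. At an unadjusted p under 0.05 there were 4 members (Plin4, Fabp4, Lpl and Cd36), and 18.2% of all genes. Leaving out sham control replicate 3 gave 3 called members (Plin4, Lpl and Cd36), where 2.81% of all genes were called, and leaving out MOV control replicate 5 gave 3 (Cfd, Plin4 and Cd36), where 2.08% were called. DESeq2 called 3, namely Plin4 (adjusted p = 0.000316), Lpl (0.000327) and Cd36 (0.000336), where it called 3.48% of all genes as lower. The same 3 had no overlap between groups, against 2.93% of all genes that were lower without overlap. Fitted log2 fold changes were below 0 for 8 of the 9 members and for 45.8% of all genes, and their median was −1.22 against 0.04.

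For MOV mimic against sham mimic, edgeR called 0 of 9 members and 0% of 14918 genes. An unadjusted p under 0.05 was reached by 6 members (Cfd, Plin4, Fabp4, Lpl, Cd36 and Scd1) and by 13.4% of all genes, and leaving out MOV mimic replicate 5 gave 1 called member (Cd36), where 0.659% of all genes were called. DESeq2 called Plin4 (adjusted p = 0.0449), Cd36 (0.022) and Scd1 (0.00134), where it called 0.65% of all genes as lower. Fabp4 and Scd1 had no overlap between groups, against 2.03% of all genes. Again 8 of 9 members had a log2 fold change below 0, against 48.2% of all genes, with a median of −0.88 against 0.02 over all genes.

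**Figure D2:**
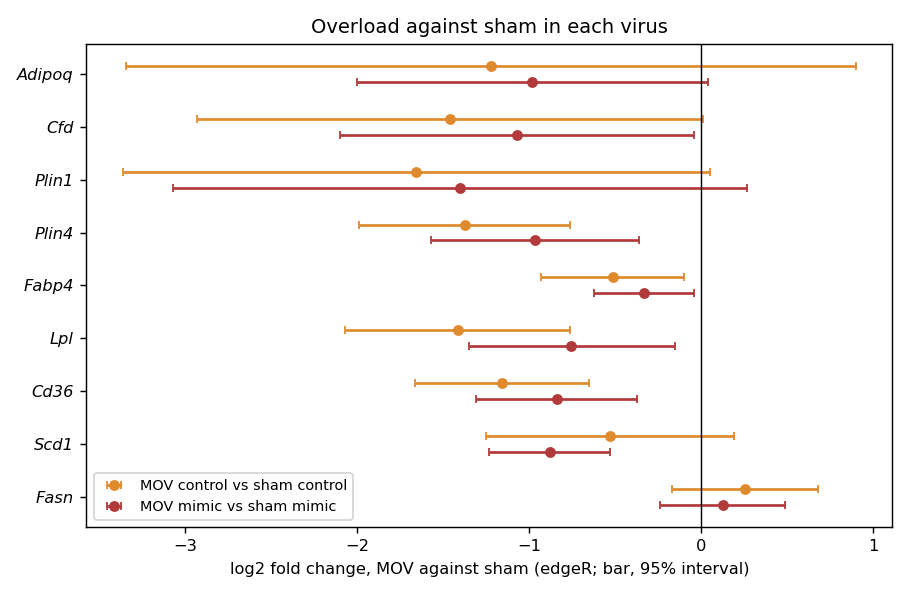
Log2 fold change of MOV against sham from edgeR for the 9 tested genes, with 95% intervals, in control muscles (orange) and mimic muscles (red). The intervals of Plin4, Fabp4, Lpl and Cd36 lie below 0 in both viruses, those of Adipoq and Plin1 are wide and reach 0, and the estimates of Fasn lie to the right of 0 in both with intervals that cross 0.

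The mimic was compared with the control virus within each surgery. In MOV muscle edgeR called 0 of 9 members and 0% of 15220 genes, no member had an unadjusted p under 0.05 in edgeR or DESeq2, and 641 genes did in edgeR. The log2 fold change of MOV mimic against MOV control was 0.49 (95% interval −0.10 to 1.08) for Lpl, 0.31 (−0.15 to 0.76) for Cd36, 0.33 (−0.18 to 0.83) for Plin4 and −0.46 (−0.95 to 0.03) for Scd1. For the adipocyte products it was far less precise, at 0.13 (−1.97 to 2.23) for Adipoq, 0.45 (−0.93 to 1.83) for Cfd and 0.64 (−1.59 to 2.87) for Plin1. Fabp4, at 0.04 (−0.37 to 0.45), and Fasn, at 0.12 (−0.30 to 0.54), had the narrowest intervals around 0. Leaving out single libraries turned the direction of Adipoq (−0.19 to 0.82) and Fabp4 (−0.04 to 0.24). The value of Cfd was 1.59 and that of Adipoq 0.82 without MOV control replicate 5, and that of Plin1 was 1.78 without MOV control replicate 2, and none of these was called.

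In sham muscle edgeR called 0 of 9 members and 0% of 14746 genes for mimic against control, with 254 genes and no member at an unadjusted p under 0.05. Log2 fold changes of the 9 members lay between −0.18 and 0.37, with a median of −0.09 against 0 over all genes. The 95% intervals were −0.43 to 0.13 for Fabp4, −0.52 to 0.49 for Cd36, −0.82 to 0.47 for Lpl and −1.37 to 1.16 for Adipoq. Lep, tested only for the interaction, had a log2 interaction of 2.75 (95% interval −1.12 to 6.62), which was 0.70 without MOV mimic replicate 5, 1.84 without sham control replicate 2 and 4.89 without MOV control replicate 5. The interaction of surgery and virus, fitted on all 20 libraries, gave 0 called members of 10 and 0% of 16166 genes, with 426 genes and no member at an unadjusted p under 0.05. The effect of overload was thus not shown to differ between viruses, but the intervals were wide, from −0.24 to 1.54 on the log2 scale for Lpl and from −2.19 to 2.64 for Adipoq.

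Co-movement was then examined within groups, after subtracting each group's mean log2 CPM, so that the difference between sham and MOV could not produce it. Over 20 libraries Adipoq was correlated with Cfd at Pearson's r = 0.70 (permutation p = 0.00261, adjusted p = 0.0235 over 9 relations, Spearman's rho = 0.71 with permutation p = 0.00297). Without the 2 libraries farthest from the median of Adipoq this r was 0.59. For Fabp4 r was 0.66 (permutation p = 0.00998, adjusted p = 0.0449, rho = 0.71 with permutation p = 0.00336) and 0.54 without the 2 libraries. Adjusted over all 45 pairs of members, the permutation p of Fabp4 was 0.0613. The permutations kept the groups but treated the muscles of 1 mouse as separate, and 20 libraries came from 10 mice. Neither relation passed the threshold with equal replicate numbers as a block (adjusted permutation p = 0.382 for both, r = 0.68 for Cfd and 0.56 for Fabp4).

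Plin1, the other gene particular to adipocytes, had r = 0.22 with Adipoq over all 20 libraries (permutation p = 0.438, adjusted p = 0.563, rho = 0.21 with permutation p = 0.44), and 0.06 without the 2 farthest libraries. With each library left out in turn this r ran from 0.05 (without MOV control replicate 4) to 0.39 (without MOV control replicate 3). Scd1 had r = 0.53 (adjusted permutation p = 0.135), Cd36 0.48 (0.115), Lep 0.34 (0.115), Plin4 0.14 (0.61), Lpl 0.13 (0.61) and Fasn −0.41 (0.216). The count of 2 members past the threshold depended on single libraries. It was 0 without sham control replicate 3, sham control replicate 5, MOV control replicate 1 or MOV control replicate 4, and 3 without MOV control replicate 3 (Scd1 joining, r = 0.74) or without MOV mimic replicate 3 (Lep joining, r = 0.40). It was 1 without sham control replicates 1, 2 or 4, sham mimic replicates 3 or 5, MOV control replicate 2 or MOV mimic replicates 2 or 5, each left out in turn.

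The pairs of members fell into more than 1 pattern. Lpl and Cd36, which act in sequence in fatty acid uptake, had r = 0.87 over 20 libraries (permutation p = 7e-05, adjusted p = 0.00315 over 45 pairs, rho = 0.86 with permutation p = 4e-05), and 0.89 without the 2 libraries farthest in Lpl. Plin4 had r = 0.64 with Lpl (adjusted permutation p = 0.0489, rho = 0.55 with permutation p = 0.0233) and 0.47 without the 2 libraries farthest in Plin4. Cfd had r = 0.75 with Scd1 (adjusted permutation p = 0.0198, rho = 0.74 with permutation p = 0.00276), and 0.73 without the 2 farthest. Plin1 with Scd1 and Cfd with Lep each had r = 0.56 (adjusted permutation p = 0.0489 for both). In all, 6 of 45 pairs passed the threshold by Pearson's r and 5 by Spearman's rho. By rho, Plin4 with Lpl (adjusted permutation p = 0.106) and Cfd with Lep (0.0802) did not pass, and Adipoq with Fabp4 did (0.0302).

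Pairs within Adipoq, Cfd, Lep and Plin1 had r from 0.22 to 0.70 with a median of 0.41, and pairs within Plin4, Lpl and Cd36 had r from 0.59 to 0.87. Between these 2 sets r ran from −0.10 to 0.48 with a median of 0.24, and 0 of the 12 pairs passed the threshold. Fasn had r from −0.61 to 0.06 with the other 9, the lowest being with Cd36 (adjusted permutation p = 0.0613). These sets were formed after the values were seen and are a description.

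**Figure D3:**
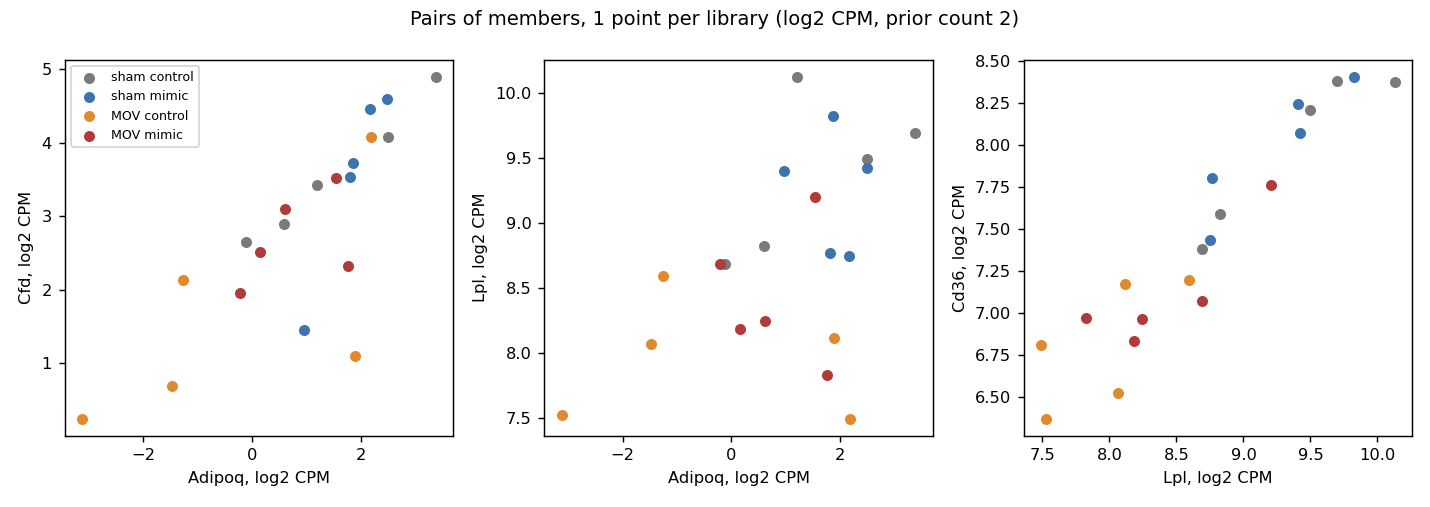
Log2 CPM (prior count 2) of 3 pairs of genes, 1 point per library, coloured by group. Cd36 and Lpl lie along a line through all groups (r = 0.95 over the points shown, 0.87 within groups). Cfd and Adipoq do so except for a few libraries that lie below the others (0.80 and 0.70). Lpl is more scattered against Adipoq (0.48 and 0.13). The first r of each pair includes the differences between groups.

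Each surgery was also taken alone, with 10 libraries of 5 mice. In the sham libraries Adipoq had r = 0.84 with Cfd (adjusted permutation p = 0.00063 over 9 relations, rho = 0.93), 0.82 with Plin1 (0.0262, rho = 0.87) and 0.87 with Scd1 (0.0262, rho = 0.81), while Fabp4, at 0.55, did not pass (0.314). In the MOV libraries 0 of the 9 relations passed. These permutations, too, treat both muscles of a mouse as separate. The 6 pairs within Adipoq, Cfd, Plin1 and Scd1 had r from 0.76 to 0.93 in sham libraries. Cfd, Plin1 and Scd1 were the genes that passed with Adipoq in these same sham libraries. High values in sham libraries, and lower ones in MOV libraries, were therefore partly fixed by the choice and are a description. Adipoq had r = 0.53 with Lep there, 0.50 with Cd36, 0.42 with Lpl and 0.26 with Plin4. In MOV libraries the same 6 pairs had r from 0.00 to 0.77, with 0.00 for Adipoq and Plin1 and 0.65 for Adipoq and Cfd. Some of these values depended on few libraries. Without the 2 sham libraries farthest in Cfd, its r was 0.47 with Plin1 and 0.44 with Scd1. Without the 2 sham libraries farthest in Adipoq, its r was 0.83 with Cfd, 0.86 with Plin1 and 0.80 with Scd1. Without the 2 MOV libraries farthest in Adipoq, its r was 0.31 with Cfd and −0.41 with Plin1. Lpl and Cd36 had r = 0.94 in sham and 0.77 in MOV libraries. The difference between surgeries was not tested.

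**Figure D4:**
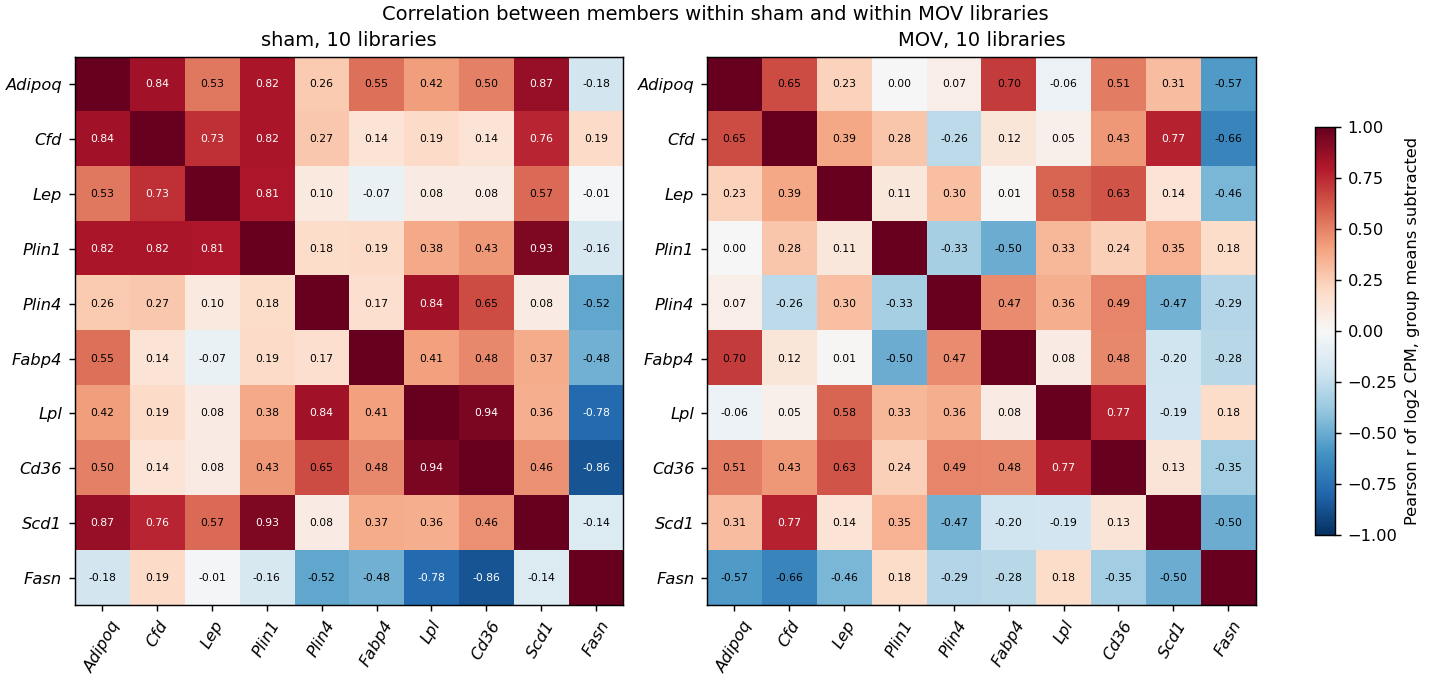
Pearson's r between log2 CPM of each pair of genes, with group means subtracted, in the 10 sham libraries (left) and the 10 MOV libraries (right). In sham libraries r runs from 0.53 to 0.93 among Adipoq, Cfd, Lep, Plin1 and Scd1, and from 0.65 to 0.94 among Plin4, Lpl and Cd36. The cells of each set are not all adjacent. Adipoq also has 0.55 with Fabp4 and 0.50 with Cd36 there. In MOV libraries the cell of Adipoq and Plin1 is at 0.00.

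Adipoq and Plin1 can be compared by the raw counts of each library, since their share does not depend on depth or scaling. Adipoq made up between 37.5% and 67.6% of the Adipoq and Plin1 counts in the 10 sham libraries. In MOV control it made up 29.4% (95% exact Clopper-Pearson interval 10.3 to 56.0), 11.5% (4.74 to 22.2), 97.2% (90.2 to 99.7), 0% and 88.4% (78.4 to 94.9) in replicates 1 to 5. Replicate 2 held 7 counts of Adipoq and 54 of Plin1, replicate 3 held 69 and 2, and replicate 4 held 1 count of both genes together, so that its share is not informative. In MOV mimic the share was 37.3% (26.4 to 49.3), 26.2% (15.8 to 39.1), 81.2% (69.5 to 89.9), 100% (76.8 to 100) and 84.3% (71.4 to 93.0).

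Outside MOV control replicate 4, the MOV libraries numbered 1 and 2 lay below the lowest sham share, although among them only MOV control replicate 2 had an interval that lay below it, and those numbered 3 to 5 lay above every sham share, in both viruses. The intervals cover counting error only. Same-numbered MOV libraries may be the 2 muscles of 1 mouse, so the 2 viruses may not be separate observations here. Summed over its libraries, each MOV group nonetheless held both genes, with 142 counts of Adipoq and 77 of Plin1 in MOV control and 153 and 112 in MOV mimic. MOV control replicate 3 was also the only library in which Adipoq (3.58 CPM) exceeded Cfd (2.02 CPM).

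**Figure D5:**
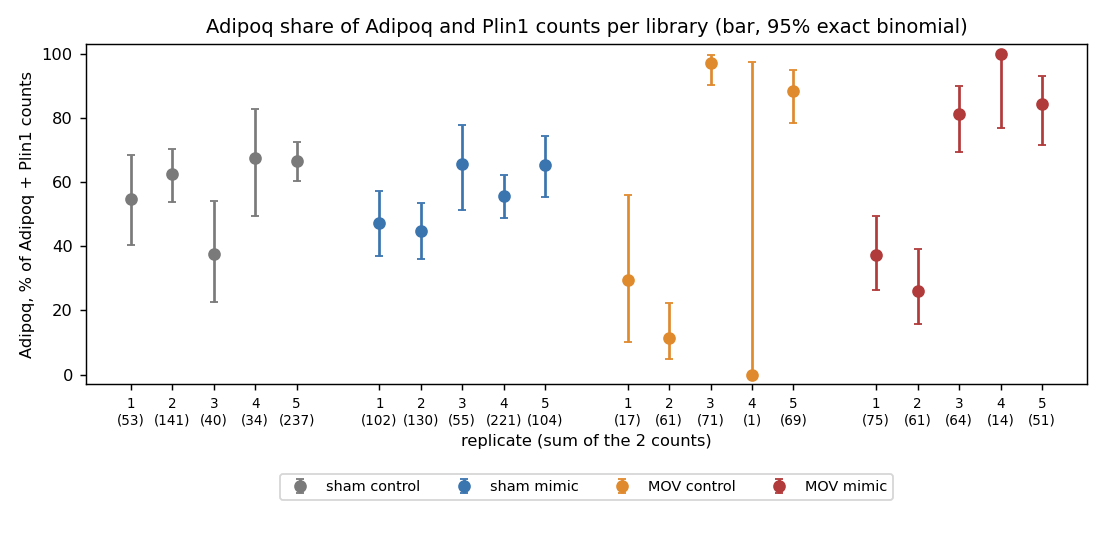
Share of Adipoq in the summed counts of Adipoq and Plin1 in each library, with 95% exact binomial intervals and the summed count in brackets under each replicate number. The 10 sham libraries lie between 37.5% and 67.6%, and MOV libraries spread from 0% of 1 count to 100% of 14 counts.

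In MOV control replicate 4 most members were low together. It held 0 counts of Adipoq, 0 of Lep and 1 of Plin1, its Cfd (1.07 CPM), Fabp4 (85.9 CPM) and Cd36 (82.6 CPM) were the lowest of all 20 libraries, and its Plin1 and Lpl were the second lowest. Plin4, Scd1 and Fasn were not at the bottom of their ranges there. Its Lpl (184 CPM) and Cd36 (82.6 CPM) were near those of MOV control replicate 5, which had 180 CPM of Lpl and 112 CPM of Cd36 beside 4.43 CPM of Adipoq. With the log2 CPM of Adipoq as a covariate, the edgeR log2 fold change of MOV control against sham control was −1.38 for Plin4, −1.31 for Lpl, −1.14 for Plin1 and −0.89 for Cd36, and it was −0.57 for Cfd, −0.28 for Fabp4 and −0.09 for Scd1. For MOV mimic against sham mimic the same fit gave −1.57 for Plin1, −0.76 for Cd36, −0.74 for Lpl, −0.72 for Scd1, −0.55 for Plin4, −0.30 for Fabp4 and 0.13 for Cfd. In neither comparison was a member called with the covariate, where 0 genes of all were called. The genes whose fold change was nearest to 0 with the covariate were thus Scd1 in control and Cfd in mimic muscles, Fasn aside. Nearness to 0 does not give the size of the shift. Without the covariate Scd1 was at −0.53 and Cfd at −1.46 in control muscles, and Cfd was at −1.07 in mimic muscles. The covariate rests on few counts in MOV control, with 5, 7 and 0 counts of Adipoq in replicates 1, 2 and 4.

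By the rule of likeness to Adipoq, the within-group r was ranked over 14754 genes with at least 1 CPM in 5 or more libraries. The 10 most alike over 20 libraries were Pmp22 (r = 0.88), Cidec (0.76), Ttc37 (0.75), Exph5 (0.74), AK157302 (0.73), Retnla (0.73), Nhsl1 (0.72), Tmem111 (0.71), Rpf1 (0.71) and Rnft1 (0.71). Cidec encodes a droplet protein that drives droplet fusion in adipocytes, and Pmp22 a myelin protein of Schwann cells. A list of 18 other adipocyte genes had 14 among the genes ranked, and Cidec was its only entry in the top 10. Retn, the resistin gene, had r = 0.57, Pck1 0.47, Gpd1 0.43 and Aqp7 0.42, while Pparg had 0.23, Lipe −0.19, Cebpa −0.19 and Adig −0.35. These values are a description, with no p.

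Lists of related genes and of other cell types were summarised by the same fits, and edgeR called 0 genes of every list in all 5 comparisons. Of the 18 other adipocyte genes, 13 were tested for MOV control against sham control, 13 had a log2 fold change below 0, 4 had an unadjusted p under 0.05, and the median was −0.74. Among these, Cidec (−2.03), Pck1 (−2.03) and Retn (−1.20) passed the filter among sham libraries but not among MOV libraries. They entered through sham, so their sign was largely fixed by the filter and lowers the median. Cidec was among the 4. For MOV mimic against sham mimic 12 were tested, 10 were below 0, 3 had an unadjusted p under 0.05, and the median was −0.58. The same limit holds for Cidec (−1.83, among the 3) and Pck1 (−1.59). The list of fibre lipid uptake and storage had medians of −0.37 and −0.38 over 17 tested genes, with 16 and 15 below 0, and 8 and 7 at an unadjusted p under 0.05. Lipogenesis genes had medians of −0.09 and −0.12 over 16, with 7 and 4 at an unadjusted p under 0.05, of which 4 and 2 had a fold change below 0. Over all genes tested the medians were 0.04 and 0.02, and 18.2% and 13.4% had an unadjusted p under 0.05.

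Endothelial and fibro-adipogenic progenitor markers had median fold changes below 0 in both comparisons. The summed level of 12 endothelial markers was 438 to 548 CPM in sham control, 268 to 522 in MOV control, 487 to 648 in sham mimic and 379 to 450 in MOV mimic. Their median log2 fold changes against sham were −0.25 (MOV control) and −0.31 (MOV mimic), with 10 of 12 below 0 in each and 3 and 6 at an unadjusted p under 0.05, all of them lower. For 12 markers of fibro-adipogenic progenitors, the stromal cells from which muscle adipocytes arise, the sum was 1632 to 2683 CPM in sham control, 926 to 1703 in MOV control, 1418 to 2558 in sham mimic and 883 to 1768 in MOV mimic. Their median log2 fold changes were −0.37 and −0.21, with 10 and 11 of 12 below 0 and 3 and 1 at an unadjusted p under 0.05, all of them lower. The 10 myofibre genes summed to 128900 to 196800 CPM in sham control, 96130 to 168300 in MOV control, 125100 to 196100 in sham mimic and 74270 to 141500 in MOV mimic, with median log2 fold changes of −0.09 and −0.41, 5 and 8 of 10 genes below 0 and 3 at an unadjusted p under 0.05 in each comparison, of which 2 were lower. Sums of 5 brown adipocyte markers lay between 8.58 and 18.8 CPM in all groups, and no marker of any list was at 0 in every library. Their part in the values of the members was not tested.

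Macrophage markers had medians of −0.28 and 0.1 in the same order, and Schwann cell markers of 0.07 and −0.17. Keratinocyte markers, which would point to skin in the sample, had 2 of 6 tested and medians of 1 and 0.36, with 1 and 0 at an unadjusted p under 0.05. The 1 was Trp63, higher in MOV control (log2 fold change 1.60, edgeR adjusted p = 0.0554). The summed level of keratinocyte markers was 10.4 to 24.0 CPM in sham control, 29.7 to 80.4 in MOV control, 11.5 to 42.8 in sham mimic and 9.88 to 48.7 in MOV mimic. The control groups were thus apart and the mimic groups overlapped.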

How the data were processed

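Total RNA from plantaris muscle was sequenced in 20 libraries, 5 per group, after library preparation with a NEBNext Ultra II kit. The files deposited by the authors hold whole-number counts per Ensembl gene, made with Cutadapt 4.4, Trim Galore 0.6.10, HISAT2 2.0.5 on GRCm38 and featureCounts 1.5.0-p3, with FastQC 0.11.9 and DESeq2 1.34.0 also named. Annotation release, strand setting and treatment of multimapping reads are not given in the sources used here. Libraries held 12036360 to 23056525 counts. Symbols were matched for 32640 of 54532 genes. No column belonged to another sample.

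Counts were tested with edgeR 4.0.16 in R 4.3.3 (TMM, filterByExpr, quasi-likelihood test, two-sided) on the 10 libraries of the 2 groups, and on 20 for the interaction. DESeq2 1.42.0, other scaling, no filter, all 20 libraries in the fit, equal replicate numbers as a block, Adipoq as a covariate and each library left out in turn were tried as alternatives. Library totals without TMM, pairs of members within each surgery, and ratios of Lep counts without single libraries were alternatives chosen after seeing the data. The edgeR fit and the correlation test were tested on simulated data. Correlations used log2 CPM (prior count 2) with group means subtracted and 100000 permutations within groups, and single genes an exact permutation test over 252 splits. Counting intervals and floors (3 counts) cover counting error only. Lengths per kb were exon bases of GENCODE vM1, and gene positions and promoters came from RefSeq GRCm38.p6. Genes named were the 10 members, the 10 genes most like Adipoq, genes past the threshold in each list, and values of listed genes given to describe a list. Members and lists were chosen with earlier results of these data known. The labels only number the replicates, and by the study's methods those of 1 group are muscles of different mice. The p-values measure the spread between libraries. Where both viruses enter a test, spread within and between mice is mixed.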

Additional observations from a re-analysis of the deposited data

Results flagged for a closer look

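In groups of 5 libraries the highest or lowest value was compared with its nearest neighbour relative to the whole range of the group, with Dixon's critical ratio of 0.71. For normal values chance exceeds this ratio in about 1 of 20 groups. The values used were CPM without a log, so that rate need not hold here. Of 40 groups tested, 8 exceeded the ratio, all through their highest library, and values below are in CPM. In MOV control these were Cfd at 16.7 (next highest 4.30), Plin1 at 2.32 (0.584), Fabp4 at 168 (105) and Lep at 0.145, the other 4 libraries being at 0. The high library differed between the genes, being replicate 5 for Cfd and Lep, replicate 2 for Plin1 and replicate 3 for Fabp4. In MOV mimic they were Lep at 1.69 (0.327) and Cd36 at 217 (134), both in replicate 5, and Scd1 at 28.6 (24.8) in replicate 3. In sham control it was Lep at 1.26 (0.326) in replicate 2. The Lep values rest on 2 counts in MOV control, 26 in MOV mimic and 20 in sham control.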

How the results depend on the processing

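For MOV control against sham control, the 0 members called became 3 with DESeq2, 3 without the filter (Plin4, Lpl and Cd36 in both) and 1 with all 20 libraries in the fit (Cd36), and lay between 0 and 3 when each library was left out in turn. Over all genes the calls were 913 with DESeq2, 388 without the filter and 36 with all 20 libraries, against 1. For MOV mimic against sham mimic the count was 3 with DESeq2 (223 over all genes) and 0 to 1 with libraries left out. In the other 3 comparisons it stayed at 0 under every alternative run. The 2 members correlated with Adipoq became 1 with a prior count of 0.5, 1 with DESeq2 size factors, 3 in sham libraries alone (Cfd, Plin1 and Scd1) and 0 in MOV libraries alone, and were 0 to 3 with libraries left out. In MOV libraries alone r with Adipoq was 0.00 for Plin1 and −0.06 for Lpl. With Adipoq as covariate the log2 fold change turned to 0.13 for Cfd in MOV mimic against sham mimic, −0.09 for Fabp4 in MOV mimic against MOV control and −0.16 for Cfd in sham mimic against sham control. Several small values of mimic against control also turned with libraries left out, with ranges in sham muscle of −0.37 to 0.59 for Adipoq, −0.19 to 0.52 for Cfd, −0.32 to 0.22 for Plin4, −0.36 to 0.06 for Lpl, −0.14 to 0.11 for Cd36 and −0.28 to 0.22 for Scd1, in MOV muscle of −0.19 to 0.82 for Adipoq and −0.04 to 0.24 for Fabp4, and for the interaction of −0.45 to 0.94 for Adipoq, −0.07 to 1.53 for Cfd, −0.18 to 1.43 for Plin1 and −0.23 to 0.02 for Fasn. The cause of these changes was not tested. Low counts of Adipoq, Plin1 and Lep limit what the depth can show for them.

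Equal replicate numbers were also fitted as a replicate block. Deviations of same-numbered libraries correlated at 0.036 to 0.321 in MOV and 0.011 to 0.664 in sham muscle. Their means were 0.164 and 0.231, against −0.04 and −0.0523 for different numbers. In MOV 8 of 10 and in sham 5 of 10 libraries correlated best with their own number, against 0 of 10 for either virus across surgeries. The labels do not state the pairing, so the numbers were not taken as pairs in the main tests, which leave out any pairing. With the block, edgeR called 0 members in every comparison, and DESeq2 called 6 for MOV control against sham control (Adipoq, Cfd, Plin1, Plin4, Lpl and Cd36, with 722 of 14974 genes), 2 for MOV mimic against sham mimic (114 of 14918) and 0 in the others (127 of 15220 genes for MOV mimic against MOV control). In comparisons across surgeries, equal numbers joined different mice. The log2 fold change of Adipoq for MOV control against sham control was −2.08 with the block in edgeR and −2.42 in DESeq2 (adjusted p = 0.0332). In sham mimic against sham control the block turned the log2 fold change of Adipoq (0.29 in edgeR, 0.34 in DESeq2), Cfd (−0.03 and −0.04) and Cd36 (0.00 and 0.01). With the block, 0 members were correlated with Adipoq past the threshold (adjusted permutation p = 0.382 for Cfd and Fabp4), and r was −0.06 for Lep and −0.15 for Plin4.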
